A study of Mus musculus with 17 samples.

Results

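The genes described here were 31 coagulation and fibrinolysis genes: the vitamin K-dependent clotting proteins and the enzymes that modify them, the clotting cofactors, the contact system, the subunits that cross-link fibrin, the brakes on clotting, the plasminogen system and the receptors through which cells sense thrombin and related proteases. Fibrinogen chains and serpins were not members. A gene was taken when its current or older symbol named a probe of the array, which gave 42 of 39429 probes and 31 of 31693 gene names, with no probe found under an older symbol. All 31 genes were tested, 41 of the 42 probes having been well above background on at least 2 of the 17 arrays, among 25977 genes in all. F13a1 entered that test through 2 arrays of the cholangiocyte condition and Tfpi2 through primary hepatocytes, so that a difference between those cells and others followed from their selection.

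RNA was measured on 17 one-colour mouse arrays in 5 groups, all from Foxl1-CRE; RosaYFP mice 6 to 10 weeks old. A hepatocyte condition of 4 arrays and a cholangiocyte condition of 3 held progenitors after differentiation in culture, cholangiocytes being the epithelial cells of bile ducts. Cells labelled primary gave 4 arrays of primary hepatocytes and 2 of primary cholangiocytes, which the labels number 3 and 4. Adult hepatic progenitors that were left undifferentiated gave the other 4. In such mice Cre is made where Foxl1 is active and turns on a fluorescent reporter that descendants keep, and every group is labelled with both alleles. The labels state neither pooling nor clonal origin of the cells and do not say that replicates were separate animals or cultures, and the spread between arrays may thus be technical.

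Clotting is a cascade in which proteases circulate as inactive precursors and activate one another on cell membranes, ending in thrombin, which turns fibrinogen into fibrin. Hepatocytes make most of the circulating precursors, and the vitamin K-dependent ones need carboxylation of glutamates in the endoplasmic reticulum before they can bind membranes. Tissue factor starts the cascade on cells that normally lie outside the blood, endothelial cells carry several of its brakes, and plasmin, cut from plasminogen by the tissue and urokinase activators, dissolves the clot.

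A level here is a probe's intensity relative to the array's 75th percentile, in log2, so 0 is that percentile, and levels of different probes are not compared. Values of a group follow the replicate order of the labels, and a value called not above background failed the well-above-background flag of the scanner software. A difference is in log2 units, taken as the first-named group less the second, and carries its standard error (SE). It comes from 1 limma model of the 17 arrays. P-values were adjusted by Benjamini-Hochberg over all genes, and a gene passed at an adjusted p under 0.05. Where a group never rose above background, the fold is a lower bound, taken against the dimmest probes above background on its arrays. It is not a bound where the other group had arrays at background, because their readings entered that group's mean. Each array held between 21 and 28 members above background.

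Several libraries stood apart within their labels. The mean level of 8 hepatocyte markers (Alb, Ttr, Apoa1, Tat, Cps1, Cyp2e1, Ass1 and Pck1) read 3.13, -3.24, 3.01 and -2.95 from array 1 to array 4 of the hepatocyte condition. Primary hepatocytes lay between 7.44 and 7.87, and the undifferentiated arrays read -1.14, -1.58, -3.76 and -6.56. Arrays 1 and 3 of the hepatocyte condition were high and arrays 2 and 4 low, and array 4 of undifferentiated progenitors was the lowest of all 17. In primary hepatocytes the 9 measured of 10 endothelial markers were above background on every array, and the list mean was -5.70 to -5.23 in the hepatocyte condition, -1.81 to -1.14 in primary hepatocytes and -6.11 to -5.62 in undifferentiated progenitors. Clec4f, a Kupffer cell marker, was above background on no array of either culture condition and on 4 of 4 arrays of primary hepatocytes (-2.30 ± 0.76, SD). The mean of the 3 measured of 5 red blood cell markers was -7.71 to -5.76 in the hepatocyte condition, -0.84 to -0.43 in primary hepatocytes and -7.86 to -6.59 in undifferentiated progenitors. The 75th percentile that scaled each array was an intensity of 1899 to 2198 in the hepatocyte condition, 544 to 983 in primary hepatocytes, 2848 and 2686 in primary cholangiocytes and 2099 to 2530 in undifferentiated progenitors. The part of these differences in the comparisons with primary hepatocytes was not tested. In these bulk samples, fewer cells of a type and less RNA per cell cannot be told apart.

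Most members differed between the hepatocyte condition and primary hepatocytes, and between primary hepatocytes and either primary cholangiocytes or undifferentiated progenitors, and fewer differed between cultured and undifferentiated cells (the map of all members by array). Against undifferentiated progenitors, 8 of 31 members passed in the hepatocyte condition, 4 higher and 4 lower, where 15.3% of all genes passed (7.63% higher and 7.66% lower). Their median difference was 0.70 over the 31 members and 0.08 over all genes. For that comparison, 11 members were under a 5% false discovery rate in the authors' deposited table, the same 8 and Plg, Thbd and F2rl1. In the cholangiocyte condition against the same undifferentiated arrays, 0 of 31 passed with limma, where 1.38% of all genes passed (0.781% higher and 0.597% lower). There 8 members had an unadjusted p under 0.05, 1 member (F3) was under a 5% false discovery rate in the authors' deposited table, and 1 (again F3) passed with the replicate number as a block.

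Against their primary counterparts the culture conditions stood differently. In the hepatocyte condition, 27 of 31 members differed from primary hepatocytes, 6 higher and 21 lower, where 59.7% of all genes passed (26% higher and 33.7% lower), with a median of -1.81 over members and -0.33 over all genes. Under quantile normalization the split was 8 higher and 16 lower, where 7976 of all genes were higher and 7377 lower. In the cholangiocyte condition, 11 of 31 differed from primary cholangiocytes, 7 higher and 4 lower, where 19.6% of all genes passed (12% higher and 7.61% lower), with medians of 0.04 and 0.17. That last count was 5 or 7 without array 1 or 2 of the cholangiocyte condition and 4 or 6 without array 3 or 4 of primary cholangiocytes.

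The other comparisons placed the groups among each other. Between the culture conditions 7 members passed, 4 higher in the hepatocyte condition and 3 lower, where 15.4% of all genes passed (6.99% higher and 8.45% lower), and 12 passed without array 2 or without array 4 of the hepatocyte condition. Primary hepatocytes differed from primary cholangiocytes in 29 members, 20 higher and 9 lower, where 49.6% of all genes passed (27.9% higher and 21.7% lower), and from undifferentiated progenitors in 28, 20 higher and 8 lower, where 64.2% of all genes passed (37.6% higher and 26.6% lower). Primary cholangiocytes differed from undifferentiated progenitors in 7, 3 higher and 4 lower, where 19% of all genes passed (8.5% higher and 10.5% lower). With normexp background correction 10 differed, 6 higher and 4 lower, where 1838 of all genes were higher and 2722 lower. Between the culture conditions the higher members were Pros1, Ggcx, Vkorc1 and Kng1 and the lower ones F3, F13a1 and Plaur. In primary cholangiocytes F3, Vwf and F2rl1 were higher and Proc, Pros1, Thbd and F2r lower than in undifferentiated progenitors, with F2rl1 (2.81 ± 0.90, adjusted p = 0.0431) lost without either array of primary cholangiocytes or array 1, 3 or 4 of undifferentiated progenitors (adjusted p = 0.0645 to 0.219) and Thbd (-3.09 ± 0.67, adjusted p = 0.00526) at -1.60 without array 3 of primary cholangiocytes (adjusted p = 0.112). These comparisons share samples, and their counts are set side by side only.

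**Figure D1:**
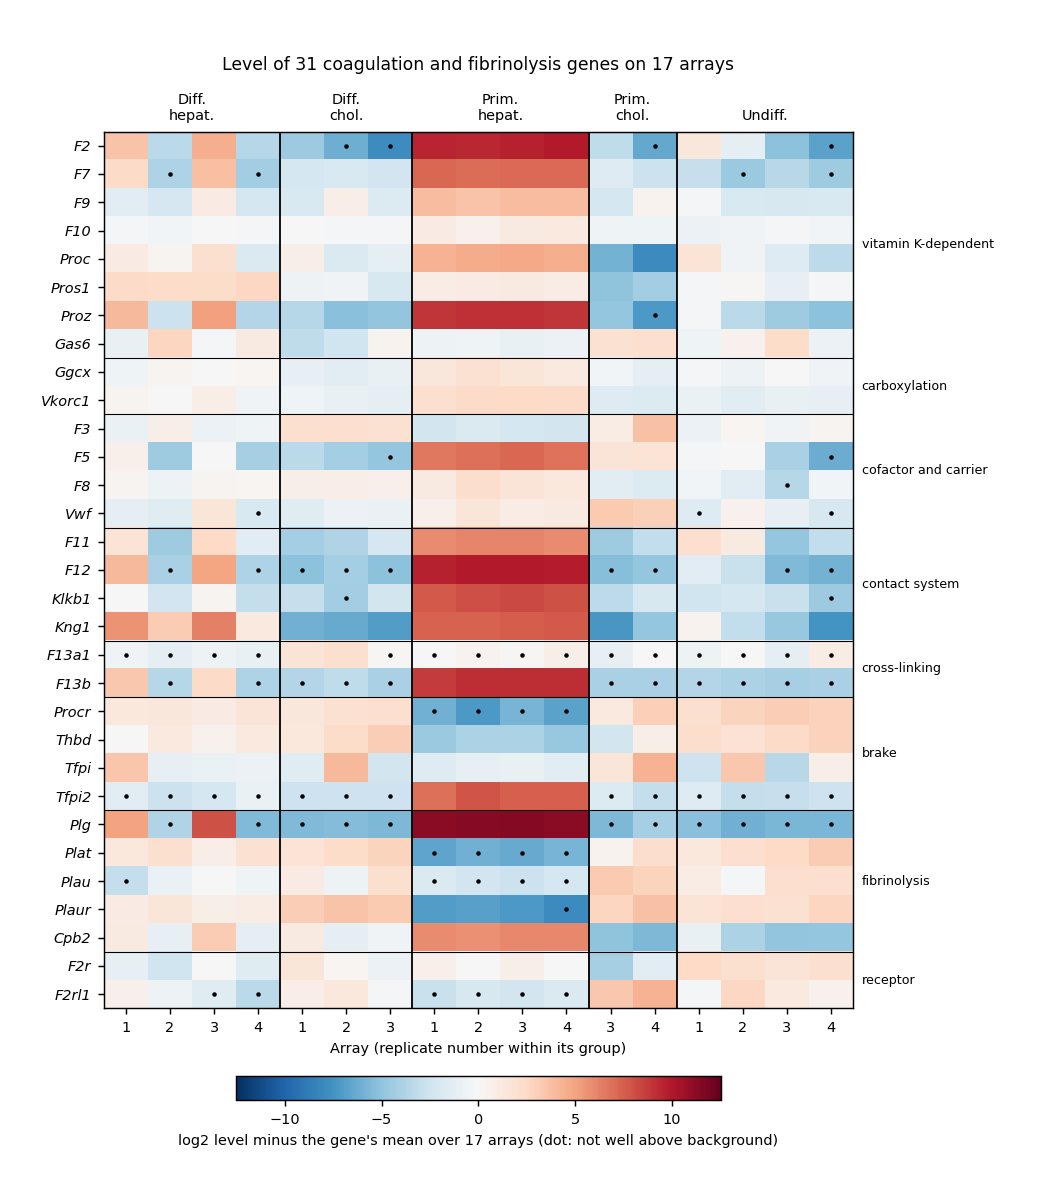
Level of each of the 31 members (rows, by role) on each of the 17 arrays (columns, by group), as log2 level minus the gene's mean over all arrays, with a dot where the probe was not well above background. The 4 arrays of primary hepatocytes form the only block in which most liver-made factors are red on every array, with Procr, Thbd, Plat and Plaur blue there, while arrays 1 and 3 of the hepatocyte condition are redder than arrays 2 and 4 for F2, F7, Proz, F12, F13b and Plg.

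Of the 8 vitamin K-dependent proteins, 1 passed between the hepatocyte condition and undifferentiated progenitors, a share near the 15.3% of all genes. Pros1, which encodes protein S, the cofactor of activated protein C, was at 3.03, 2.92, 2.88 and 3.22 in the hepatocyte condition, with -0.06, 0.17 and -1.39 in the cholangiocyte condition. Pros1 levels were 1.51, 1.65, 1.75 and 1.49 in primary hepatocytes, -4.47 and -3.71 in primary cholangiocytes, and 0.41, 0.76, -0.39 and 0.34 in undifferentiated progenitors. All 4 arrays of the hepatocyte condition lay above every array of every other group, primary hepatocytes included. It was higher than in undifferentiated progenitors by 2.73 ± 0.32, adjusted p = 9.39e-05, higher than in the cholangiocyte condition by 3.44 ± 0.34, adjusted p = 3.02e-05, and higher than in primary hepatocytes by 1.41 ± 0.32, adjusted p = 0.00161. Its rise over undifferentiated progenitors was 2.15, 2.81 and 3.42 within the 3 slides that held both groups. In the cholangiocyte condition protein S was also higher than in primary cholangiocytes (3.66 ± 0.41, adjusted p = 3.73e-05), whose 2 arrays were the lowest of all.

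Prothrombin and the other liver-made vitamin K-dependent proteins did not pass against undifferentiated progenitors. F2, prothrombin, was at 2.20, -4.72, 3.17 and -4.91 in the hepatocyte condition, with -5.88, -7.51 and -9.22 in the cholangiocyte condition. F2 levels were 8.14, 8.09, 8.31 and 8.51 in primary hepatocytes, -4.56 and -7.73 in primary cholangiocytes, and 0.06, -2.53, -6.51 and -8.05 in undifferentiated progenitors. Its arrays 1 and 3 of the hepatocyte condition stood above all undifferentiated arrays while arrays 2 and 4 lay among them, and arrays 2 and 3 of the cholangiocyte condition, array 4 of primary cholangiocytes and array 4 of undifferentiated progenitors were not above background. The difference from undifferentiated progenitors was 3.19 ± 1.98, adjusted p = 0.337, and that from primary hepatocytes was -9.33 ± 1.98, adjusted p = 0.00103, with no overlap of arrays. The mean of the 8 hepatocyte markers was likewise 3.13 and 3.01 on arrays 1 and 3 of the hepatocyte condition and -3.24 and -2.95 on arrays 2 and 4, and its part in this and the like-shaped members was not tested.

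F7, factor VII, which forms the first active complex with tissue factor, was at -1.37, -7.64, 0.06 and -8.06 in the hepatocyte condition, with -5.94, -5.60 and -6.13 in the cholangiocyte condition. F7 levels were 3.46, 3.29, 3.34 and 3.32 in primary hepatocytes, -5.39 and -6.47 in primary cholangiocytes, and -6.58, -8.41, -7.21 and -8.22 in undifferentiated progenitors. In the hepatocyte condition it was above background on arrays 1 and 3 only, and in undifferentiated progenitors on arrays 1 and 3 only. Neither culture condition passed against undifferentiated progenitors (3.35 ± 1.42, adjusted p = 0.138 for the hepatocyte condition), but without array 2 or array 4 of the hepatocyte condition that comparison passed (adjusted p = 0.049 and 0.0329). Against primary hepatocytes F7 was lower (-7.60 ± 1.42, adjusted p = 0.000375).

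Proz, protein Z, a cofactor in the inhibition of active factor X, had a like split. It was at 2.28, -4.44, 3.33 and -5.50 in the hepatocyte condition, with -5.36, -6.99 and -6.68 in the cholangiocyte condition. Proz levels were 7.12, 7.30, 7.31 and 7.13 in primary hepatocytes, -6.62 and -9.01 in primary cholangiocytes, and -2.06, -5.13, -6.19 and -6.95 in undifferentiated progenitors. Arrays 1 and 3 of the hepatocyte condition were again the high ones, and array 4 of primary cholangiocytes was not above background. The difference from undifferentiated progenitors was 4.0 ± 1.70, adjusted p = 0.138, with adjusted p = 0.0364 without array 4 of the hepatocyte condition, and that from primary hepatocytes was -8.30 ± 1.70, adjusted p = 0.000779.

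F9, factor IX, whose loss causes haemophilia B, was at -1.82, -2.68, 0.48 and -2.78 in the hepatocyte condition, with -2.40, 0.26 and -2.28 in the cholangiocyte condition. F9 levels were 3.28, 3.05, 3.32 and 3.29 in primary hepatocytes, -2.76 and -0.08 in primary cholangiocytes, and -0.73, -2.46, -2.50 and -2.40 in undifferentiated progenitors. Array 3 of the hepatocyte condition, array 2 of the cholangiocyte condition, array 4 of primary cholangiocytes and array 1 of undifferentiated progenitors were each high within their group. It did not pass against undifferentiated progenitors (0.33 ± 0.79, adjusted p = 0.857 in the hepatocyte condition) and was lower than in primary hepatocytes (-4.94 ± 0.79, adjusted p = 0.000104). Proc, protein C, the anticoagulant that cleaves the active cofactors V and VIII, was at 3.69, 2.95, 4.69 and 0.86 in the hepatocyte condition, with 3.38, 0.82 and 1.45 in the cholangiocyte condition. Proc levels were 7.03, 7.27, 7.39 and 7.21 in primary hepatocytes, -3.29 and -5.32 in primary cholangiocytes, and 4.37, 2.24, 1.02 and -0.64 in undifferentiated progenitors. Its hepatocyte-condition arrays overlapped those of undifferentiated progenitors (1.30 ± 0.99, adjusted p = 0.453) and lay below primary hepatocytes (-4.18 ± 0.99, adjusted p = 0.00233). In the cholangiocyte condition it was higher than in primary cholangiocytes by 6.19 ± 1.28, adjusted p = 0.00402, the widest called difference among the members in that comparison.

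Gas6, a growth factor of this family that acts on receptor tyrosine kinases and not in the cascade, was at 0.89, 4.51, 1.55 and 3.0 in the hepatocyte condition, with -1.30, -0.67 and 2.26 in the cholangiocyte condition. Gas6 levels were 1.15, 1.25, 0.93 and 1.05 in primary hepatocytes, 3.72 and 3.89 in primary cholangiocytes, and 1.25, 2.38, 4.16 and 1.1 in undifferentiated progenitors. In the hepatocyte condition arrays 2 and 4 were its high arrays, opposite to F2, F7 and Proz. It did not pass against undifferentiated progenitors (0.27 ± 0.88, adjusted p = 0.898 in the hepatocyte condition) or against primary hepatocytes (1.39 ± 0.88, adjusted p = 0.184), and it was lower in the cholangiocyte condition than in primary cholangiocytes (-3.71 ± 1.13, adjusted p = 0.0337). That call was lost without array 1 or 2 of the cholangiocyte condition or either array of primary cholangiocytes (adjusted p = 0.0995 to 0.12).

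**Figure D2:**
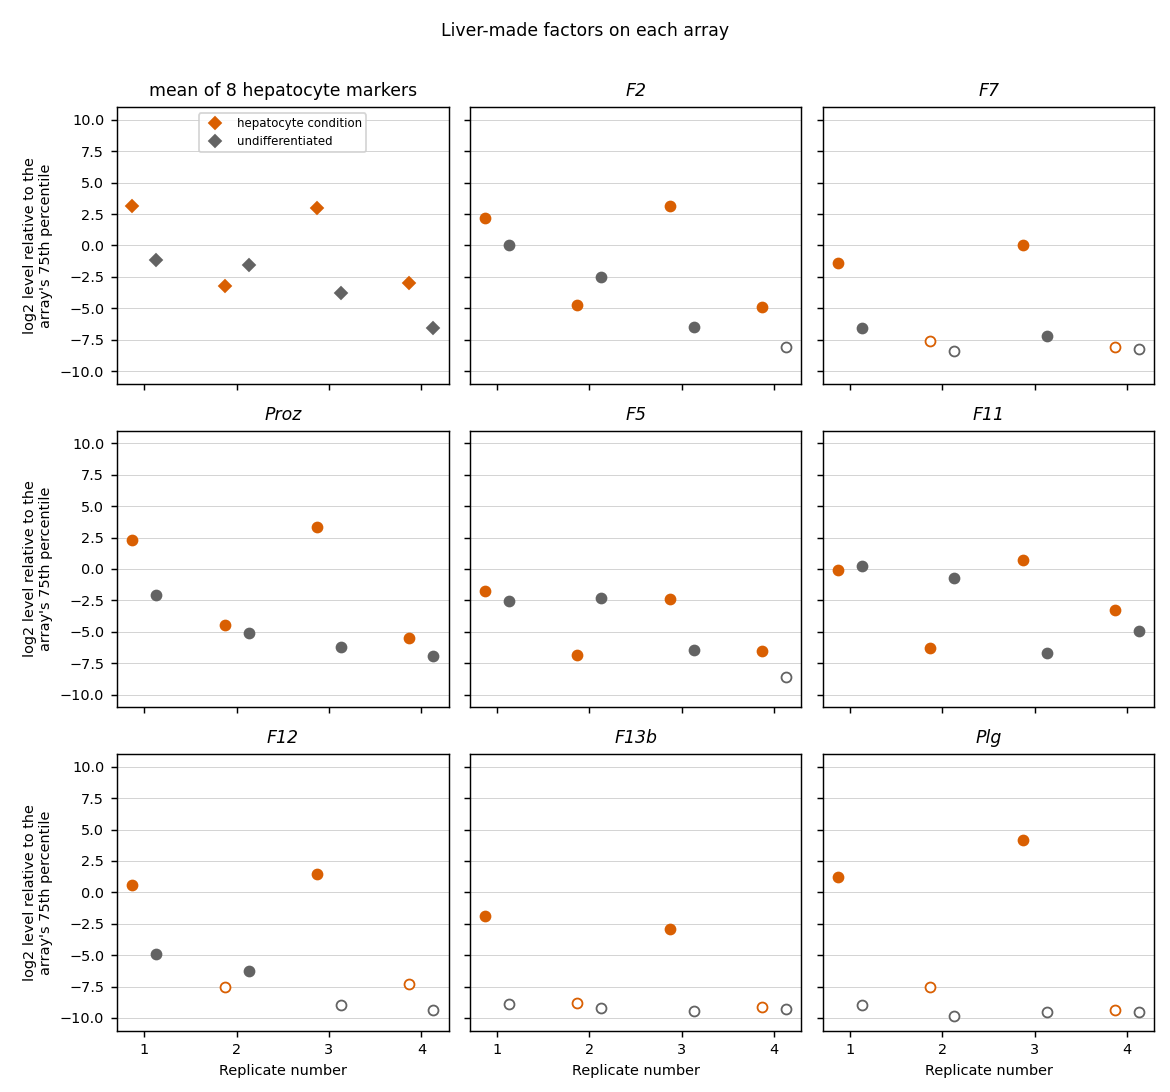
Level of 8 members, chosen after their values were seen, on each array of the hepatocyte condition (orange) and of undifferentiated progenitors (grey) against replicate number, with the mean of 8 hepatocyte markers in the first panel. Open symbols were not well above background. Arrays 1 and 3 of the hepatocyte condition are high in every panel (Plg 1.19 and 4.18, marker mean 3.13 and 3.01) and arrays 2 and 4 are low (Plg -7.54 and -9.34, marker mean -3.24 and -2.95).

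F10, factor X, whose active form cuts prothrombin, was measured by 2 probes that gave different pictures. They are shown because the first, which had the higher mean and stands for the gene in the counts, shares runs of 20 bases with 13 probes of other genes, while the other shares none. The first 30 bases of each, as deposited, are printed 5′ to 3′, with capitals for bases in a shared run. The files place the probes on chromosome 8 at 13056119 to 13056178 and at 13055774 to 13055833, plus strand, in a build not given in the sources used here.
F10, probe with the highest mean: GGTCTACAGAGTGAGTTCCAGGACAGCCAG
F10, other probe: tggcatctacacaaaggtcacgaccttcct
Such a run of the first probe also occurred in 58 of the RefSeq promoter windows (0.177%), and no other probe of a member shared one with a probe of another gene.

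By the first probe, F10 was at 8.13, 7.97, 8.19 and 8.09 in the hepatocyte condition, with 8.22, 8.16 and 8.0 in the cholangiocyte condition. F10 levels were 9.26, 8.83, 9.36 and 9.44 in primary hepatocytes, 7.76 and 7.71 in primary cholangiocytes, and 7.57, 7.80, 8.04 and 7.93 in undifferentiated progenitors. It was lower in the hepatocyte condition than in primary hepatocytes (-1.13 ± 0.15, adjusted p = 2.39e-05). That sign reversed under quantile normalization (0.18, adjusted p = 0.224). By the other probe, a choice made after seeing the data, F10 was at 3.53, -4.92, 4.37 and -7.40 in the hepatocyte condition, with -7.62, -7.49 and -9.13 in the cholangiocyte condition. Its levels by that probe were 7.15, 7.38, 7.26 and 7.20 in primary hepatocytes, -9.06 and -8.77 in primary cholangiocytes, and -2.90, -5.15, -9.47 and -9.06 in undifferentiated progenitors. It was above background on arrays 1, 2 and 3 of the hepatocyte condition, on arrays 1 and 2 of undifferentiated progenitors, and on none of the cholangiocyte condition or primary cholangiocytes. The difference from primary hepatocytes was -8.35 ± 2.22 by this probe (adjusted p = 0.00513), and that from undifferentiated progenitors 5.54 ± 2.22 (adjusted p = 0.112). The hepatocyte difference from primary cells minus the cholangiocyte difference was -1.52 ± 0.25, adjusted p = 0.000315 by the first probe and -9.19 ± 3.63 (adjusted p = 0.06) by the other.

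**Figure D3:**
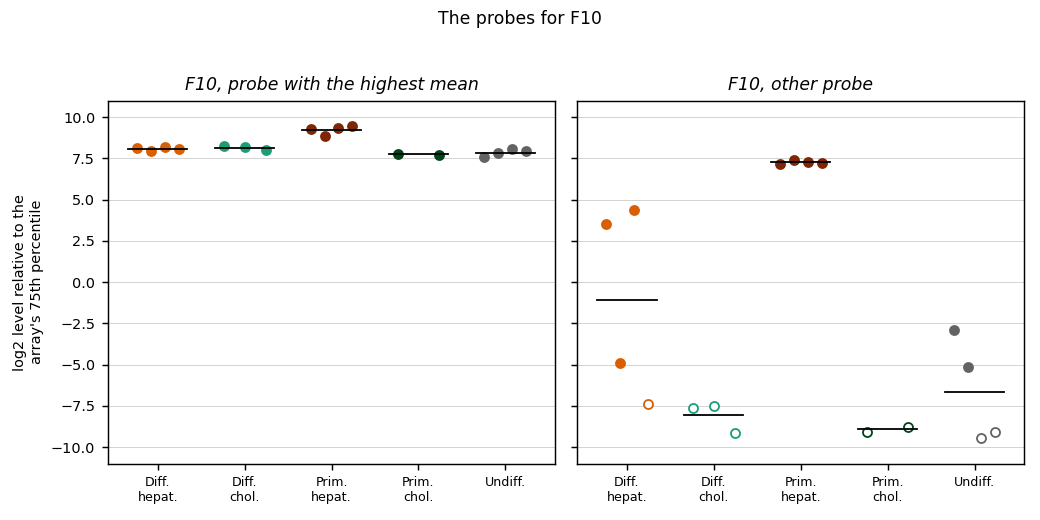
Levels of F10 by its probe with the highest mean (left) and by its other probe (right) in the 5 groups, one point per array, with a line at the group mean and open points where the probe was not well above background. The left probe spans 7.57 to 9.44 over all 17 arrays, and the right probe spans -9.47 to 7.38.

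Of the enzymes that prepare these proteins, Vkorc1 rose in the hepatocyte condition and Ggcx did not pass. Vkorc1, which recycles vitamin K and is the target of warfarin, was at 4.57, 4.28, 5.08 and 3.81 in the hepatocyte condition, with 3.67, 3.33 and 3.07 in the cholangiocyte condition. Vkorc1 levels were 6.29, 6.58, 6.71 and 6.64 in primary hepatocytes, 2.59 and 2.49 in primary cholangiocytes, and 3.42, 2.86, 3.26 and 3.18 in undifferentiated progenitors. All arrays of the hepatocyte condition exceeded all undifferentiated arrays (1.26 ± 0.24, adjusted p = 0.00304) and lay below primary hepatocytes (-2.12 ± 0.24, adjusted p = 3.62e-06), and within the 3 shared slides its rise was 1.42, 0.39 and 1.31. It was also higher than in the cholangiocyte condition (1.08 ± 0.26, adjusted p = 0.0117), a call lost without array 3 of that condition (adjusted p = 0.0556). Ggcx, the carboxylase itself, was at -0.93, -0.04, -0.50 and -0.17 in the hepatocyte condition, with -1.39, -1.76 and -1.30 in the cholangiocyte condition. Ggcx levels were 0.98, 1.53, 1.13 and 0.81 in primary hepatocytes, -0.78 and -1.56 in primary cholangiocytes, and -0.52, -1.08, -0.43 and -0.85 in undifferentiated progenitors. It overlapped undifferentiated progenitors (0.31 ± 0.25, adjusted p = 0.483), was higher than in the cholangiocyte condition (1.07 ± 0.27, adjusted p = 0.0151, but 0.0742 without array 2 of that condition), and was lower than in primary hepatocytes (-1.52 ± 0.25, adjusted p = 0.00012).

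Tissue factor was lower in the hepatocyte condition than in the cholangiocyte condition. F3, the membrane receptor for factor VII that starts clotting, was at 0.97, 2.53, 1.1 and 1.28 in the hepatocyte condition, with 3.78, 3.92 and 3.74 in the cholangiocyte condition. F3 levels were -0.48, 0.04, -0.41 and -0.50 in primary hepatocytes, 2.79 and 5.47 in primary cholangiocytes, and 1.13, 2.04, 1.37 and 2.13 in undifferentiated progenitors. The 3 arrays of the cholangiocyte condition lay above all undifferentiated arrays and above all arrays of the hepatocyte condition, with a spread of 0.09 (SD), and primary hepatocytes were lowest. The hepatocyte condition overlapped undifferentiated progenitors and did not pass against them (-0.20 ± 0.48, adjusted p = 0.847 in a limma fit of all kept probes). The difference between the hepatocyte and cholangiocyte conditions was -2.34 ± 0.52, adjusted p = 0.00743. That between the cholangiocyte condition and undifferentiated progenitors was 2.14 ± 0.52, adjusted p = 0.0612 by this probe, and 2.32 ± 0.51, adjusted p = 0.0437, by the other F3 probe, so the call depended on the probe. With the replicate number as a block in the fit of all groups, it was 2.26 (adjusted p = 0.0462). That fit was not a paired test of these samples alone. The labels state no pairing, which was inferred from these same data and for this comparison only. In the hepatocyte condition F3 was higher than in primary hepatocytes by 1.81 ± 0.48, adjusted p = 0.00495. It was likewise higher in primary cholangiocytes than in undifferentiated progenitors (2.46 ± 0.59, adjusted p = 0.00923), but 1.12 without array 4 of primary cholangiocytes (adjusted p = 0.166) and 3.80 without array 3.

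Plaur, the cell-surface receptor that holds urokinase, was likewise lower in the hepatocyte condition than in the cholangiocyte condition. It was at 2.40, 2.91, 2.14 and 2.33 in the hepatocyte condition, with 4.50, 5.01 and 4.66 in the cholangiocyte condition. Plaur levels were -5.59, -5.36, -5.80 and -6.52 in primary hepatocytes, 4.04 and 5.04 in primary cholangiocytes, and 3.13, 3.47, 3.33 and 4.04 in undifferentiated progenitors. Every array of the hepatocyte condition was below every array of the cholangiocyte condition (-2.28 ± 0.32, adjusted p = 0.000393), and undifferentiated progenitors lay between them. Against undifferentiated progenitors the hepatocyte condition was lower (-1.05 ± 0.30, adjusted p = 0.0277), without overlap, and the cholangiocyte condition differed by 1.23 ± 0.32, adjusted p = 0.0825. The call in the hepatocyte condition was lost without array 1, 3 or 4 of the hepatocyte condition or array 2 or 4 of undifferentiated progenitors (adjusted p = 0.0576 to 0.0838), and the comparison in the cholangiocyte condition passed without array 4 of undifferentiated progenitors (adjusted p = 0.0496). In primary hepatocytes Plaur was above background on 3 of 4 arrays, and the hepatocyte condition exceeded them by 8.26 ± 0.30, adjusted p = 2.83e-11.

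The promoters of F3 and Plaur are shown as 250 bases before the start of the gene, because these members were lower in the hepatocyte condition than in the cholangiocyte condition, and that of F13b is shown as a promoter of a gene highest in primary hepatocytes. Sequences are from RefSeq (GRCm38.p6), plus strand, 5′ to 3′, and capitals mark a match on either strand to the AP-1 motif TGANTCA (F3, Plaur) or to the HNF1 motif GTTAAT (F13b).
F3, chr3:121723287-121723536: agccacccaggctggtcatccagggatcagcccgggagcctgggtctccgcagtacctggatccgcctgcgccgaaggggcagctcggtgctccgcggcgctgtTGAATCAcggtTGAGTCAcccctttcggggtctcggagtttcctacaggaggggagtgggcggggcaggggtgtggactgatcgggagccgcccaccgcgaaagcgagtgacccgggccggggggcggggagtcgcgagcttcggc
Plaur, chr7:24462233-24462482: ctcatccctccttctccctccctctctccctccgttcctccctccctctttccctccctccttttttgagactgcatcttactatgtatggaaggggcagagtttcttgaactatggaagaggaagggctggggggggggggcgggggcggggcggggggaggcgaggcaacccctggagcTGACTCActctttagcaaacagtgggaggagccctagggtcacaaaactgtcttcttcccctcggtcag
F13b, chr1:139501457-139501706: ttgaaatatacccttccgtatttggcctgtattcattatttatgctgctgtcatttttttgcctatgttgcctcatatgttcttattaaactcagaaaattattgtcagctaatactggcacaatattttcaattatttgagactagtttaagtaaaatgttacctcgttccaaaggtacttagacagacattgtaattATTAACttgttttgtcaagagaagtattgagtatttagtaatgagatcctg
F3 held 2 matches to the AP-1 motif, starting 146 and 135 bases before the start, Plaur held 1 at 69 bases and F13b 1 match to the HNF1 motif at 51 bases. In windows of 250 bases before to 50 after the start, TGANTCA occurred in 7.81% of 32851 RefSeq promoters and in 6 of 27 windows of members (F2, Procr, F3, Tfpi2, Plaur and F2r). GTTAAT occurred in 7.1% of all and in 5 of the 27 (F2, Proz, F13b and 2 windows of Tfpi2), and the HNF4 motif AAAGTCC in 4.21% of all and in 4 (Tfpi, Cpb2 and 2 windows of F13a1). A match describes letters only, and each promoter shown holds at least 1. F13a1 was also lower in the hepatocyte condition than in the cholangiocyte condition but held no match to the AP-1 motif. F5, F7, F8, F9, F10, F11, F12, Klkb1, Ggcx, Vkorc1 and Cpb2 were also highest in primary hepatocytes but held no match to the HNF1 motif. The table gave a promoter for 23 of the 31 members, and Proc, Kng1, Plg, Plat, Plau, Thbd, Vwf and F2rl1 are named only.

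The cofactors made in the liver and in vessels differed from F3. F5, the cofactor of active factor X, was at -1.79, -6.84, -2.39 and -6.51 in the hepatocyte condition, with -5.80, -6.64 and -7.26 in the cholangiocyte condition. F5 levels were 4.23, 4.54, 4.78 and 4.43 in primary hepatocytes, -0.79 and -0.68 in primary cholangiocytes, and -2.58, -2.32, -6.47 and -8.60 in undifferentiated progenitors. Arrays 1 and 3 of the hepatocyte condition and arrays 1 and 2 of undifferentiated progenitors were the high ones of those groups, and array 3 of the cholangiocyte condition and array 4 of undifferentiated progenitors were not above background. It did not pass against undifferentiated progenitors (0.61 ± 1.35, adjusted p = 0.841 in the hepatocyte condition), was lower than in primary hepatocytes (-8.88 ± 1.35, adjusted p = 6.31e-05), and was lower in the cholangiocyte condition than in primary cholangiocytes (-5.84 ± 1.75, adjusted p = 0.0309). The last call was lost without any 1 of the 5 arrays compared (adjusted p = 0.0519 to 0.113).

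F8, the cofactor of factor IX, made chiefly by endothelial cells, was at -4.52, -5.48, -4.48 and -4.65 in the hepatocyte condition, with -4.17, -4.02 and -4.19 in the cholangiocyte condition. F8 levels were -3.78, -2.67, -3.22 and -3.51 in primary hepatocytes, -6.26 and -6.59 in primary cholangiocytes, and -5.19, -6.22, -8.41 and -5.21 in undifferentiated progenitors. The cholangiocyte condition was above all undifferentiated arrays but did not pass (2.13 ± 0.60, adjusted p = 0.114). The hepatocyte condition was lower than primary hepatocytes (-1.49 ± 0.56, adjusted p = 0.0322), a call lost without array 2 or 4 of the condition or array 2 or 3 of primary hepatocytes (adjusted p = 0.0521 to 0.0906). In the cholangiocyte condition it was higher than in primary cholangiocytes by 2.30 ± 0.72, adjusted p = 0.0372, lost without any 1 array (adjusted p = 0.0683 to 0.148) and by the other F8 probe (adjusted p = 0.178). Between primary cholangiocytes and undifferentiated progenitors the call also depended on the probe (-0.17 ± 0.68, adjusted p = 0.903 by this one and -2.33, adjusted p = 0.0152, by the other). Array 3 of undifferentiated progenitors was not above background. Vwf, which carries factor VIII and binds platelets, was at -6.62, -6.83, -3.89 and -7.27 in the hepatocyte condition, with -6.83, -6.14 and -6.18 in the cholangiocyte condition. Vwf levels were -4.76, -3.84, -4.48 and -4.27 in primary hepatocytes, -2.10 and -2.36 in primary cholangiocytes, and -6.97, -4.86, -6.37 and -7.37 in undifferentiated progenitors. Array 4 of the hepatocyte condition and arrays 1 and 4 of undifferentiated progenitors were not above background. Primary cholangiocytes were highest, above undifferentiated progenitors by 4.17 ± 0.80, adjusted p = 0.00231, and the cholangiocyte condition was lower than primary cholangiocytes (-4.16 ± 0.84, adjusted p = 0.00346). In the hepatocyte condition Vwf was lower than in primary hepatocytes (-1.81 ± 0.65, adjusted p = 0.0269), with array 3 of the condition as high as primary hepatocytes, and that call was lost without array 1, 2 or 4 of the condition or array 2 or 4 of primary hepatocytes (adjusted p = 0.0522 to 0.0878). Endothelial markers differed between these groups too, the list mean being -5.70 to -5.23 in the hepatocyte condition against -1.81 to -1.14 in primary hepatocytes, and -5.33 to -5.01 in the cholangiocyte condition against -4.99 and -3.98 in primary cholangiocytes. Their part in the F8 and Vwf differences was not tested.

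In the contact system, Kng1 passed against undifferentiated progenitors and the other 3 genes did not. Kng1, the precursor of bradykinin and a carrier of prekallikrein and factor XI, was at 7.27, 4.80, 7.97 and 2.91 in the hepatocyte condition, with -4.40, -4.68 and -5.33 in the cholangiocyte condition. Kng1 levels were 9.0, 9.01, 9.25 and 9.29 in primary hepatocytes, -5.64 and -3.20 in primary cholangiocytes, and 2.08, -1.47, -3.10 and -5.79 in undifferentiated progenitors. All 4 arrays of the hepatocyte condition were above all undifferentiated arrays, which themselves spanned 7.87 log2 units. It was higher than in undifferentiated progenitors by 7.81 ± 1.37, adjusted p = 0.00186 and than in the cholangiocyte condition by 10.54 ± 1.48, adjusted p = 0.000403, and lower than in primary hepatocytes (-3.40 ± 1.37, adjusted p = 0.0456). The rise over undifferentiated progenitors was 6.27, 0.83 and 10.37 within the 3 slides with both groups, and the call against primary hepatocytes was lost without array 2 or 4 of the condition or any 1 array of primary hepatocytes (adjusted p = 0.0743 to 0.148).

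F12, factor XII, the protease that starts contact activation, was at 0.56, -7.53, 1.44 and -7.31 in the hepatocyte condition, with -8.58, -7.65 and -8.58 in the cholangiocyte condition. F12 levels were 6.17, 6.46, 6.45 and 6.40 in primary hepatocytes, -8.75 and -8.28 in primary cholangiocytes, and -4.90, -6.27, -8.94 and -9.34 in undifferentiated progenitors. Only arrays 1 and 3 of the hepatocyte condition, all of primary hepatocytes, and arrays 1 and 2 of undifferentiated progenitors were above background. Against undifferentiated progenitors the hepatocyte condition differed by 4.15 ± 1.76, adjusted p = 0.137, passing without array 2 or 4 (adjusted p = 0.0451 and 0.0489), and against primary hepatocytes (-9.58 ± 1.76, adjusted p = 0.000324). F11, factor XI, was at -0.10, -6.31, 0.70 and -3.26 in the hepatocyte condition, with -6.04, -5.62 and -3.96 in the cholangiocyte condition. F11 levels were 4.11, 4.27, 4.26 and 4.07 in primary hepatocytes, -6.31 and -4.90 in primary cholangiocytes, and 0.23, -0.69, -6.71 and -4.94 in undifferentiated progenitors. Arrays 1 and 3 of the hepatocyte condition lay near arrays 1 and 2 of undifferentiated progenitors, and the groups overlapped (0.78 ± 1.56, adjusted p = 0.818), while primary hepatocytes stood above all (-6.42 ± 1.56, adjusted p = 0.00283 for the hepatocyte condition). Klkb1, prekallikrein, was at -2.63, -4.95, -2.25 and -5.54 in the hepatocyte condition, with -5.39, -6.87 and -4.81 in the cholangiocyte condition. Klkb1 levels were 5.16, 5.47, 5.67 and 5.37 in primary hepatocytes, -5.87 and -4.52 in primary cholangiocytes, and -5.07, -4.78, -5.30 and -7.08 in undifferentiated progenitors. Array 2 of the cholangiocyte condition and array 4 of undifferentiated progenitors were not above background. It was lower in the hepatocyte condition than in primary hepatocytes (-9.26 ± 0.73, adjusted p = 1.05e-07), and the difference from undifferentiated progenitors did not pass (1.72 ± 0.73, adjusted p = 0.141).

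The fibrin cross-linking enzyme was split between its subunits. F13b, the carrier subunit made by hepatocytes, was at -1.88, -8.84, -2.88 and -9.11 in the hepatocyte condition, with -8.96, -8.41 and -9.35 in the cholangiocyte condition. F13b levels were 3.47, 3.91, 3.99 and 3.95 in primary hepatocytes, -9.30 and -9.34 in primary cholangiocytes, and -8.93, -9.23, -9.41 and -9.29 in undifferentiated progenitors. Outside primary hepatocytes it was above background only on arrays 1 and 3 of the hepatocyte condition. In undifferentiated progenitors it was on no array above background (mean -9.21). The mean of the hepatocyte condition was -5.68, but the fit did not pass (adjusted p = 0.0793, and 0.0256 and 0.0183 without array 2 or 4). Against the dimmest probes above background in undifferentiated progenitors, that mean was 3.47-fold higher. That fold is not a bound, because arrays 2 and 4 of the hepatocyte condition were at background. F13b was lower than in primary hepatocytes (-9.51 ± 1.27, adjusted p = 1.89e-05). F13a1, the catalytic subunit, known from macrophages and megakaryocytes, was at -8.67, -9.34, -8.87 and -9.08 in the hepatocyte condition, with -6.56, -6.17 and -8.05 in the cholangiocyte condition. F13a1 levels were -8.24, -7.79, -8.08 and -7.51 in primary hepatocytes, -9.20 and -8.18 in primary cholangiocytes, and -8.81, -8.22, -9.28 and -7.28 in undifferentiated progenitors. It was above background on arrays 1 and 2 of the cholangiocyte condition and on no other array. The mean of the hepatocyte condition (-8.99) was below that of the cholangiocyte condition (-6.93, adjusted p = 0.0103, 0.0596 without array 2 of the cholangiocyte condition). The cholangiocyte condition was also higher than primary cholangiocytes (mean -8.69, adjusted p = 0.0455). That call was lost without array 1 or 2 of the condition or array 3 of primary cholangiocytes. These folds are not bounds, array 3 of the cholangiocyte condition being at background, and both differences followed from how F13a1 was selected. Its call between the hepatocyte condition and primary hepatocytes (adjusted p = 0.0491) compared values that were all at background, and was lost without any 1 of the 8 arrays (adjusted p = 0.0552 to 0.116). The mean of 9 measured platelet and megakaryocyte markers was -6.78 to -6.25 in the hepatocyte condition, -5.46 to -5.07 in the cholangiocyte condition and -5.78 and -6.11 in primary cholangiocytes. Their part in the F13a1 difference was not tested.

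**Figure D4:**
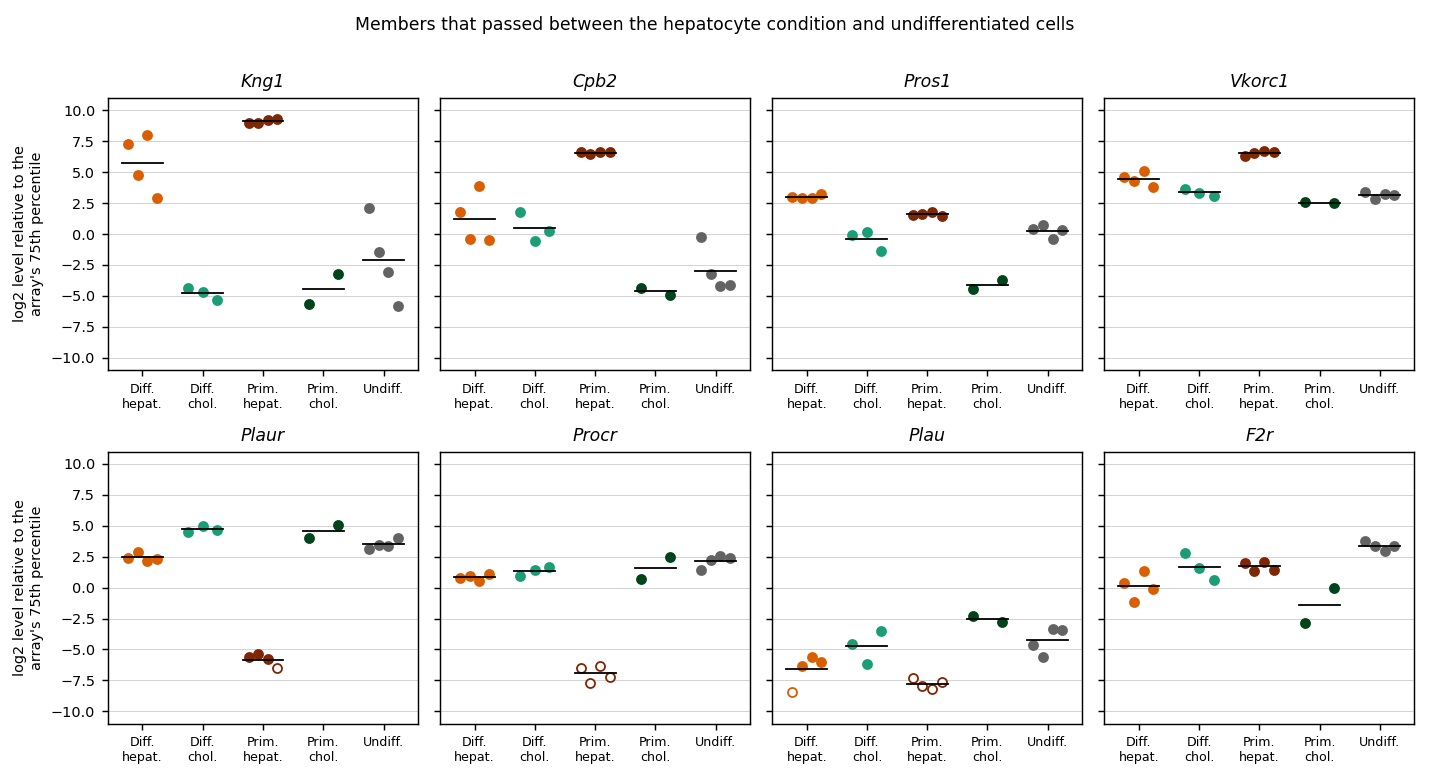
Level of the 8 members that passed between the hepatocyte condition and undifferentiated progenitors, one point per array in each of the 5 groups, with a line at the group mean and open points where the probe was not well above background. Kng1, Cpb2, Pros1 and Vkorc1 were higher and Plaur, Procr, Plau and F2r lower in the hepatocyte condition than in undifferentiated progenitors, and all 4 arrays of the hepatocyte condition lie above primary hepatocytes for Pros1.

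Of the brakes on clotting, Procr and Thbd, known from endothelial cells, were higher in the hepatocyte condition than in primary hepatocytes. Procr, the receptor that presents protein C for activation, was at 0.80, 0.95, 0.55 and 1.07 in the hepatocyte condition, with 0.96, 1.44 and 1.63 in the cholangiocyte condition. Procr levels were -6.51, -7.71, -6.30 and -7.23 in primary hepatocytes, 0.68 and 2.50 in primary cholangiocytes, and 1.46, 2.27, 2.55 and 2.41 in undifferentiated progenitors. It was above background on every array except those of primary hepatocytes, and the hepatocyte condition was at least 120-fold higher than primary hepatocytes (adjusted p = 1.01e-09). Against undifferentiated progenitors it was lower (-1.33 ± 0.39, adjusted p = 0.0344), without overlap. That call was lost without any 1 array of the hepatocyte condition or array 2, 3 or 4 of undifferentiated progenitors (adjusted p = 0.0521 to 0.0921).

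Thbd, thrombomodulin, which turns thrombin into an activator of protein C, was at -0.75, 0.50, -0.22 and 0.48 in the hepatocyte condition, with 0.62, 1.56 and 2.34 in the cholangiocyte condition. Thbd levels were -5.36, -4.72, -4.71 and -5.43 in primary hepatocytes, -3.00 and -0.02 in primary cholangiocytes, and 1.43, 1.12, 1.62 and 2.16 in undifferentiated progenitors. The hepatocyte condition lay below all undifferentiated arrays but did not pass (-1.58 ± 0.55, adjusted p = 0.0687), and it was above primary hepatocytes by 5.06 ± 0.55, adjusted p = 2.4e-06. Between the hepatocyte condition and undifferentiated progenitors, the false discovery rate of Thbd in the authors' deposited table was 0.6%. In the cholangiocyte condition Thbd was higher than in primary cholangiocytes by 3.02 ± 0.71, adjusted p = 0.0084, but by 1.53 without array 3 of primary cholangiocytes (adjusted p = 0.135). The 9 measured endothelial markers were all above background on every array of primary hepatocytes, where Procr was not and Thbd was lowest. The part of endothelial cells in the Procr and Thbd levels was not tested.

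Tfpi, the inhibitor of tissue factor and factor VII, ranged from -4.47 to 0.10 in the hepatocyte condition, -5.66 to 0.70 in the cholangiocyte condition, -5.02 to -4.35 in primary hepatocytes, -1.84 to 0.91 in primary cholangiocytes and -6.84 to -0.04 in undifferentiated progenitors. Single arrays stood high in both culture conditions and in undifferentiated progenitors, and neither culture condition passed against undifferentiated or primary cells (0.70 ± 1.62, adjusted p = 0.847 for the hepatocyte condition against undifferentiated progenitors). Tfpi2, a related inhibitor of plasmin and other proteases, was at -8.23, -9.58, -9.09 and -7.69 in the hepatocyte condition, with -9.47, -9.43 and -9.51 in the cholangiocyte condition. Tfpi2 levels were 0.03, 0.99, 0.64 and 0.56 in primary hepatocytes, -8.60 and -9.88 in primary cholangiocytes, and -8.51, -9.88, -9.76 and -9.48 in undifferentiated progenitors. It was above background on every array of primary hepatocytes and on no other array. The hepatocyte condition was at least 232-fold lower than primary hepatocytes (adjusted p = 3.36e-10). As Tfpi2 entered the test through primary hepatocytes alone, that call followed from its selection.

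In the fibrinolytic system Plg and Cpb2 were lower, and Plat and Plaur higher, in the hepatocyte condition than in primary hepatocytes, and Plau did not pass. Plg, plasminogen, was at 1.19, -7.54, 4.18 and -9.34 in the hepatocyte condition, with -9.31, -9.27 and -9.42 in the cholangiocyte condition. Plg levels were 7.47, 7.54, 7.65 and 7.44 in primary hepatocytes, -9.42 and -8.00 in primary cholangiocytes, and -8.99, -9.84, -9.56 and -9.53 in undifferentiated progenitors. Primary hepatocytes apart, it was above background on arrays 1 and 3 of the hepatocyte condition and on no other array. Its mean was -2.88 in the hepatocyte condition and -9.48 in undifferentiated progenitors, but the fit did not pass (adjusted p = 0.0558, and 0.0271 and 0.00862 without array 2 or 4). Against the dimmest probes above background in undifferentiated progenitors, the mean of the hepatocyte condition was 24.2-fold higher. That fold is not a bound, because arrays 2 and 4 of the hepatocyte condition were at background. In the authors' deposited table the false discovery rate of Plg for this comparison was 4.63%. The hepatocyte condition was below primary hepatocytes (-10.40 ± 2.18, adjusted p = 0.000928), with arrays 1 and 3 also below every array of primary hepatocytes. Cpb2, the carboxypeptidase that slows fibrin lysis, was at 1.82, -0.38, 3.88 and -0.52 in the hepatocyte condition, with 1.79, -0.59 and 0.27 in the cholangiocyte condition. Cpb2 levels were 6.60, 6.43, 6.65 and 6.66 in primary hepatocytes, -4.35 and -4.91 in primary cholangiocytes, and -0.27, -3.25, -4.22 and -4.11 in undifferentiated progenitors. It was higher in the hepatocyte condition than in undifferentiated progenitors by 4.16 ± 0.98, adjusted p = 0.0106, though arrays 2 and 4 of the condition fell just below the highest undifferentiated array, and with slide as a block the call was lost (adjusted p = 0.0544). Within the shared slides the difference was 2.87, -0.26 and 6.04. It was lower than in primary hepatocytes (-5.38 ± 0.98, adjusted p = 3e-04). In the cholangiocyte condition Cpb2 did not pass against undifferentiated progenitors (means 0.49 and -2.96, adjusted p = 0.15). Without array 1 of undifferentiated progenitors it passed there (4.36, adjusted p = 0.0487). Between the cholangiocyte condition and primary cholangiocytes it was higher by 5.12 ± 1.26, adjusted p = 0.0114, with adjusted p = 0.0633 without array 4 of primary cholangiocytes.

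The activators were above background in every group but primary hepatocytes. Plat, tissue plasminogen activator, was at -0.43, 0.30, -0.87 and 0.18 in the hepatocyte condition, with -0.04, 0.60 and 1.04 in the cholangiocyte condition. Plat levels were -8.28, -7.76, -8.02 and -7.59 in primary hepatocytes, -1.26 and 0.51 in primary cholangiocytes, and -0.41, 0.40, 0.73 and 1.46 in undifferentiated progenitors. The groups of cultured cells, primary cholangiocytes and undifferentiated progenitors overlapped, and the hepatocyte condition was at least 58.5-fold higher than primary hepatocytes, where no array was above background (adjusted p = 3.59e-09). Plau, urokinase, was at -8.47, -6.32, -5.58 and -6.01 in the hepatocyte condition, with -4.52, -6.19 and -3.49 in the cholangiocyte condition. Plau levels were -7.34, -7.92, -8.20 and -7.67 in primary hepatocytes, -2.26 and -2.75 in primary cholangiocytes, and -4.61, -5.61, -3.37 and -3.40 in undifferentiated progenitors. It was lower in the hepatocyte condition than in undifferentiated progenitors (-2.35 ± 0.68, adjusted p = 0.0316), with array 1 of the condition not above background and the groups overlapping. With normexp background correction the difference was -0.71 (adjusted p = 0.098), and the call was also lost with slide as a block (adjusted p = 0.115) and without array 1 or 2 of the condition or array 3 or 4 of undifferentiated progenitors (adjusted p = 0.0557 to 0.0913). Plau was above background on no array of primary hepatocytes, and the hepatocyte condition did not pass against them (1.18 ± 0.68, adjusted p = 0.149).

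Of the receptors for clotting proteases, F2r fell in the hepatocyte condition and F2rl1 did not pass. F2r, the main thrombin receptor on many cells, was at 0.37, -1.13, 1.33 and -0.14 in the hepatocyte condition, with 2.82, 1.61 and 0.61 in the cholangiocyte condition. F2r levels were 2.02, 1.38, 2.08 and 1.41 in primary hepatocytes, -2.84 and -0.03 in primary cholangiocytes, and 3.79, 3.36, 2.96 and 3.33 in undifferentiated progenitors. Undifferentiated progenitors were above all arrays of all other groups, and the hepatocyte condition was lower (-3.25 ± 0.62, adjusted p = 0.003), a call that held in all 18 alternatives (adjusted p = 0.00124 to 0.011). Within the shared slides the difference was -4.49, -3.93 and -2.60. The hepatocyte condition was also below primary hepatocytes (-1.62 ± 0.62, adjusted p = 0.0358), lost without array 1, 2 or 4 of the condition or array 1 or 3 of primary hepatocytes (adjusted p = 0.0505 to 0.116). The cholangiocyte condition was above primary cholangiocytes (3.12 ± 0.80, adjusted p = 0.0138), but by 1.72 without array 3 of primary cholangiocytes (adjusted p = 0.206) and with adjusted p = 0.0548 without array 1 of the condition.

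F2rl1, the receptor for trypsin-like proteases and factor VII with tissue factor, was at -5.26, -6.61, -7.41 and -9.30 in the hepatocyte condition, with -5.11, -4.65 and -6.16 in the cholangiocyte condition. F2rl1 levels were -8.68, -7.97, -8.26 and -7.71 in primary hepatocytes, -2.58 and -1.62 in primary cholangiocytes, and -6.14, -3.38, -4.75 and -5.39 in undifferentiated progenitors. Primary cholangiocytes were highest, and arrays 3 and 4 of the hepatocyte condition and all arrays of primary hepatocytes were not above background. It did not pass between the hepatocyte condition and undifferentiated progenitors (-2.23 ± 0.74, adjusted p = 0.057; 0.0151 without array 1 of the condition and 0.039 without array 1 of undifferentiated progenitors) and was lower in the cholangiocyte condition than in primary cholangiocytes (-3.20 ± 0.95, adjusted p = 0.03). The call against primary cholangiocytes was lost without array 1 or 3 of the condition or either array of primary cholangiocytes (adjusted p = 0.0593 to 0.16). Between the hepatocyte condition and undifferentiated progenitors, the false discovery rate of F2rl1 in the authors' deposited table was 1.03%.

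Between the primary cell types the differences ran both ways. Of the 20 members that were higher in primary hepatocytes than in primary cholangiocytes, 4 were above background on no array of primary cholangiocytes, with bounds of at least 34188-fold for Plg, 15339-fold for F12, 2640-fold for F13b and 273-fold for Tfpi2. As Tfpi2 entered the test through primary hepatocytes alone, its call here followed from its selection. Of the 9 that were lower in primary hepatocytes, Procr was at least 202-fold lower, Plat at least 51.9-fold lower, F2rl1 at least 15.7-fold lower and Plau at least 11.9-fold lower than in primary cholangiocytes. Against undifferentiated progenitors the bounds for primary hepatocytes were at least 302-fold lower for Procr and at least 98.3-fold lower for Plat.

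**Figure D5:**
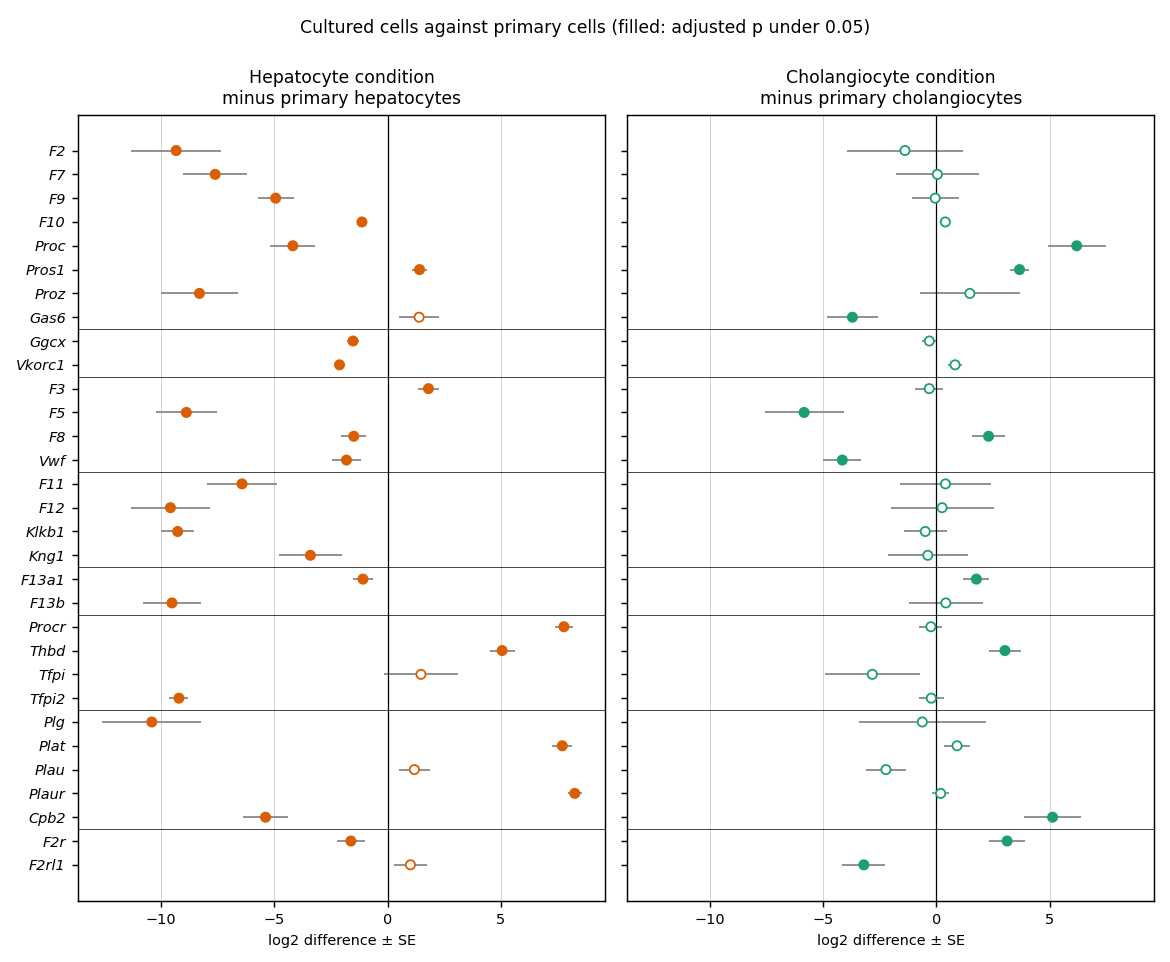
Log2 difference ± SE of each of the 31 members between the hepatocyte condition and primary hepatocytes (left) and between the cholangiocyte condition and primary cholangiocytes (right), filled where the adjusted p was under 0.05. On the left 21 members are filled below 0 and 6 above it (Pros1, F3, Procr, Thbd, Plat and Plaur), and on the right 4 below and 7 above.

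The signed difference between cultured and primary cells was not the same in both lineages for most members. Proc, F8, F13a1, Cpb2 and F2r were lower than in primary cells in the hepatocyte lineage and higher in the cholangiocyte lineage. Their terms thus give opposite directions, not a wider distance in the hepatocyte lineage. The hepatocyte difference minus the cholangiocyte difference passed for 25 of 31 members, 18 negative and 7 positive, where 37.7% of all genes passed (15.6% higher and 22.2% lower), with a median of -3.02 over members and -0.44 over all genes. Among the negative were 3 of the widest, Cpb2 at -10.51 ± 1.60, adjusted p = 0.000153, Proc at -10.36 ± 1.62, adjusted p = 0.000184 and F13b at -9.92 ± 2.08, adjusted p = 0.00184, the last being above background on no array of the cholangiocyte condition or primary cholangiocytes. The positive ones were Plaur (8.08 ± 0.48), Procr (8.03 ± 0.64), Plat (6.80 ± 0.72), Gas6 (5.10 ± 1.43), F2rl1 (4.21 ± 1.20), Plau (3.41 ± 1.12) and F3 (2.12 ± 0.78, with adjusted p = 0.0452, and 0.0527 by its other probe). Without array 4 of primary cholangiocytes 17 members passed, F3, F2rl1 and Plau not among them.

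Other genes of the pathway were taken from a list of 35, of which 33 were measured. In the hepatocyte condition against undifferentiated progenitors 9 were higher and 2 lower, where 7.63% of all genes were higher and 7.66% lower, and in the cholangiocyte condition 0 of 33 passed with limma, where 1.38% of all genes did. In that comparison 6 of the 33 had an unadjusted p under 0.05. The largest differences in the hepatocyte condition were those of the fibrinogen chains, of Serpina10, the inhibitor that works with protein Z, and of Kng2, a second kininogen gene. Fibrinogen gamma chain Fgg was at 7.95, 7.21, 8.16 and 6.91 in the hepatocyte condition, and 1.28, -2.08, -4.61 and -9.22 in undifferentiated progenitors, a difference of 11.21 ± 1.60 (adjusted p = 0.000477). Serpina10 was at 3.67, 4.81, 3.77 and 3.46 in the hepatocyte condition, and -4.39, -4.98, -4.40 and -5.24 in undifferentiated progenitors, a difference of 8.68 ± 0.30 (adjusted p = 1.01e-09). As with Pros1, all 4 arrays of the condition lay close together for Serpina10 and far above the undifferentiated ones, whereas Kng2, at 4.79, 2.0, 5.75 and -0.05 in the hepatocyte condition, and -0.72, -4.32, -5.81 and -9.48 in undifferentiated progenitors, varied between arrays like Kng1 (8.20 ± 1.55, adjusted p = 0.00293). Against primary hepatocytes 7 of the 33 were higher and 14 lower in the hepatocyte condition, where 26% of all genes were higher and 33.7% lower. Against primary cholangiocytes 5 were higher and 6 lower in the cholangiocyte condition, where 12% of all genes were higher and 7.61% lower. Between the culture conditions 8 were higher in the hepatocyte condition and 2 lower, where 6.99% of all genes were higher and 8.45% lower.

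Arrays lay on 5 slides, and values within slides were compared where a slide held both groups. Of the 8 calls between the hepatocyte condition and undifferentiated progenitors, 8, 7 and 8 had the same sign within the 3 slides, the exception being Cpb2. Of the 27 calls against primary hepatocytes, 27, 27 and 26 did. All 11 calls between the cholangiocyte condition and primary cholangiocytes kept their sign on the 1 slide that held both. With slide as a block the counts for these comparisons were 5, 25 and 9, against 8, 27 and 11 without it.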

How the data were processed

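Total RNA was amplified and labelled with Cy3 for Agilent one-colour mouse arrays, with 44397 spots an array. Per the file headers, Feature Extraction 10.5.1.1 made the deposited intensity values by subtracting background and detrending within each array (the submitters' processing notes name version 9.53). No scaling between arrays had been applied to them. The authors' deposited table gives signed fold changes, and false discovery rates in percent, both read here as a score, for 8 group comparisons, computed by steps not given in the sources used here.

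Each processed intensity was divided by the 75th percentile of its array and taken to log2, after control spots, outlier spots and the 135 probes that then had no spot left on some array were left out. The 23896 to 29227 probes well above background per array and the number of arrays limit the precision, and no spot was saturated. Probes well above background on at least 2 arrays were kept (32305 probes), and the probe with the highest mean stood for a gene (25977 genes). Names came from the files, updated through RefSeq accessions for 26412 probes, by current symbol for 3854 and by older symbol for 735, and kept as in the file for 8428. One group-means model over 17 arrays was fitted with limma 3.58.1 (R 4.3.3, statmod 1.5.0), two-sided, with Benjamini-Hochberg adjustment over all genes. The procedure was tested on simulated data. Figures used Python 3.11.15 with matplotlib 3.10.9.

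Groups were taken from the labels. Between the cholangiocyte condition and undifferentiated progenitors, same-numbered arrays deviated together from their group means (r = 0.28 to 0.38 in 3 pairs), so the replicate number was taken to pair them there. The members and gene lists were chosen with earlier results of these data known. Values by array were given for members that passed in either culture condition against undifferentiated or primary cells, and for Plg, Kng1 and F3. Of other pathway genes, up to 6 were to be named, by size. Alternatives were normexp background correction (offset 50), scaling to the array median, quantile normalization, other filters, the mean of a gene's probes, slide or replicate blocks, fits to the groups compared, and leaving out each array. F10 by its other probe and the authors' deposited table at a false discovery rate under 5% were added after seeing the data.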

Additional observations from a re-analysis of the deposited data

Results flagged for a closer look

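For 5 of 93 sets of 4 arrays, 1 per member and group, a single array lay far from the other 3, where chance gives about 1 in 20. F9 was -0.73 on array 1 of undifferentiated progenitors, the others lying at -2.50 to -2.40, and 3.05 on array 2 of primary hepatocytes, the others lying at 3.28 to 3.32. F8 was -5.48 on array 2 of the hepatocyte condition, against -4.65 to -4.48 on its other arrays, and Tfpi was 0.10 on array 1, against -4.47 to -4.15. F13b was 3.47 on array 1 of primary hepatocytes, the others lying at 3.91 to 3.99.

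For 25 members the difference between cultured and primary cells itself differed between the lineages, by the interaction term of the limma fit (hepatocyte difference minus cholangiocyte difference, log2). Among the vitamin K-dependent proteins the term was -7.64 for F7, -4.88 for F9, -1.52 for F10, -10.36 for Proc, -2.25 for Pros1, -9.77 for Proz and 5.10 for Gas6. It was -1.21 for Ggcx and -2.94 for Vkorc1, the carboxylation enzymes. Of the cofactors, F3 had 2.12 and F8 -3.79, and of the contact system F11 had -6.82, F12 -9.83 and Klkb1 -8.76. The cross-linking subunits F13a1 and F13b had -2.85 and -9.92. Of the brakes, Procr had 8.03 and Tfpi2 -8.97. In fibrinolysis the term was -9.78 for Plg, 6.80 for Plat, 3.41 for Plau, 8.08 for Plaur and -10.51 for Cpb2, and for the receptors -4.73 for F2r and 4.21 for F2rl1. For Pros1 both differences were positive, the smaller one being that in the hepatocyte lineage. F12, F13a1, F13b, Plg and Tfpi2 were above background on no array of at least 2 of the 4 groups in their term. The terms of F13a1 and Tfpi2 also followed from how these members were selected. By its other probe F10 did not pass in the limma fit (-9.19 ± 3.63, adjusted p = 0.06). The calls of F11 and Plg were each lost without any 1 of 11 arrays (adjusted p = 0.0611 to 0.147 and 0.0569 to 0.125) and that of F3 without any 1 of 9 (0.0577 to 0.348).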

How the results depend on the processing

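Calls held in every alternative run, with an array left out included, for 4 of 8 members between the hepatocyte condition and undifferentiated progenitors (Pros1, Vkorc1, Kng1 and F2r), 21 of 27 between it and primary hepatocytes, 3 of 11 between the cholangiocyte condition and primary cholangiocytes, 4 of 7 between the culture conditions, 24 of 29 and 24 of 28 for primary hepatocytes against primary cholangiocytes and undifferentiated progenitors, 3 of 7 for primary cholangiocytes against undifferentiated progenitors, and 14 of 25 for the interaction. Leaving out 1 array at a time gave, in the same order, 5 to 11, 22 to 26, 4 to 9, 6 to 12, 25 to 28, 27 to 28, 5 to 8 and 17 to 26 members. The cholangiocyte condition against undifferentiated progenitors gave 0 to 1 (0 with all arrays), with 1 by the mean of a gene's probes, 2 with normexp, 1 with only the groups compared, 1 with the replicate block and 1 in the authors' deposited table. The other counts that moved by over 1.5 times were 5 with slide as a block for the hepatocyte condition against undifferentiated progenitors, 6 with only the groups compared and 7 in the authors' deposited table for the cholangiocyte condition against primary cholangiocytes, and 3 with only the groups compared for primary cholangiocytes against undifferentiated progenitors. Under quantile normalization F10 changed sign, to 0.18 against primary hepatocytes in the hepatocyte condition, -0.22 and -0.12 in primary hepatocytes against primary cholangiocytes and undifferentiated progenitors, and 0.19 in the interaction. With normexp F2rl1 changed sign, to -0.69 in the hepatocyte condition against primary hepatocytes (adjusted p = 0.0392) and 0.13 in primary hepatocytes against undifferentiated progenitors. The cause was not tested. With the replicate block the other comparisons gave 7, 26, 9, 9, 28, 28, 8 and 21 members in the order above. Same-numbered arrays paired in no comparison other than the cholangiocyte condition against undifferentiated progenitors (r = -0.15 to 0.52 for the hepatocyte condition). Scaling to the array median moved the median difference of all genes by -0.45 to 0.19, quantile normalization by -0.45 to 0.34 and normexp by -0.54 to 0.52. Array-median scaling gave 4 members higher and 6 lower in the hepatocyte condition against undifferentiated progenitors, where 1115 of all genes were higher and 2773 lower. Levels at background have no order, and primary cholangiocytes rest on 2 arrays.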
